A study of Mus musculus with 8 samples.

Results

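The macrophage integrins and surface markers examined here are 10 genes: Itgam, Itgb2, Adgre1, Cd84, Cd53, Ptprc, Cd86, Ms4a7, Aif1 and Mrc1. They were taken by name, with every probe set that carried one of these symbols and no other, which gave 11 of the 22626 probe sets that were not controls and 10 of the 12393 genes measured. Cd86 had 2 probe sets and the other 9 genes had 1 each. The arrays were Affymetrix mouse expression arrays, 1 per animal, hybridised with RNA from the right hippocampus of 8 mice with or without mucopolysaccharidosis type VII. This lysosomal storage disease follows from loss of beta-glucuronidase, the enzyme encoded by Gusb. The 4 animals called normal were Gusb mps/+, that is, carriers with 1 mutant copy, and the 4 called mutant were Gusb mps/mps. Both groups were on the B6.C-H2-Kbm1/ByBir strain, came from a colony bred between carrier brothers and sisters, and shared cages. Normals 1 to 4 were a female of 38.3 weeks, a male of 25.6 weeks, a male of 19.6 weeks and a female of 14.6 weeks. Mutants 1 to 4 were a female of 38.3 weeks, 2 males of 25.6 weeks and a female of 19.6 weeks. The normals therefore do not stand for animals with intact Gusb on both chromosomes, and the 14.6-week normal had no mutant of its age.

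Leukocyte integrins are pairs of an alpha and a beta chain that hold white blood cells to vessel walls, to complement-coated particles and to each other. Itgam encodes the alpha chain CD11b and Itgb2 the beta chain CD18 that it pairs with, and in the healthy brain both are carried mainly by microglia, the resident macrophages of the tissue. The other members mark all leukocytes (Ptprc, which is CD45, and the tetraspanin Cd53), macrophages and microglia as a lineage (Adgre1, the classic surface antigen of mouse macrophages, and Aif1, the actin-binding protein IBA1), macrophage subsets or states (Cd84, Cd86 and Ms4a7), and macrophages along vessels and in the meninges (the mannose receptor Mrc1). Transcription of Itgam and many other myeloid genes depends on PU.1, a factor of the ETS family that binds purine-rich sites.

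Promoter windows of 300 bases, 250 before to 50 after the start of the transcript, were read from RefSeq for the GRCm38.p6 build and searched on both strands for GAGGAAG, a purine-rich core bound by PU.1. Of the 10 members, 7 had an entry, with 9 windows between them, and Itgb2, Adgre1 and Cd86 had none. The core was found in 3 of the 9 windows, those of Itgam, Mrc1 and Cd53, and in 4477 of all 32851 windows (13.6%). The windows of Cd84 and Ms4a7 are printed because these were the 2 members with the largest changes, and that of Itgam because it held the core on both strands; capitals mark the core or its reverse complement. The Cd84 window lies at chr1:171839447-171839746 on the plus strand, the printed Ms4a7 window at chr19:11336097-11336396 on the minus strand, and the Itgam window at chr7:128062390-128062689 on the plus strand. Ms4a7 had another window, at chr19:11334646-11334945 on the minus strand, which also lacked the core and is not printed.
Cd84: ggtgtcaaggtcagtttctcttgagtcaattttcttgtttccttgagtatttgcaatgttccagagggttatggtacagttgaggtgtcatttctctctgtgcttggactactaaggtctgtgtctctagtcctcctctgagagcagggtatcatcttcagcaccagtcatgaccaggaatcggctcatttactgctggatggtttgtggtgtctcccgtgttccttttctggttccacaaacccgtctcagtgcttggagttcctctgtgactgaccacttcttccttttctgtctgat
Ms4a7: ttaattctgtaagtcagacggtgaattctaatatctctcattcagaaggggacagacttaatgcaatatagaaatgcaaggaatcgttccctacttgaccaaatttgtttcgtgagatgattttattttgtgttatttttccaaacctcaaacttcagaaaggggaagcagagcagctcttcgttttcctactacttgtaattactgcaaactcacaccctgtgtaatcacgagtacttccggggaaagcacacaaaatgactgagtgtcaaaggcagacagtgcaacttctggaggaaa
Itgam: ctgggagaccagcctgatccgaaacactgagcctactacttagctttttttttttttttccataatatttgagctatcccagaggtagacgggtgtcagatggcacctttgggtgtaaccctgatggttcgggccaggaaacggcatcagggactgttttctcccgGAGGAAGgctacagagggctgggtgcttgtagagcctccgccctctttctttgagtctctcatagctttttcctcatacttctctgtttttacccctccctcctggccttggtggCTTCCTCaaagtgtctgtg
In Itgam the plus-strand match began at position -84 and the minus-strand match at position 32, counted in bases from the start of the transcript. A match describes the letters and is not a measured binding site, and a window without one says only that these 7 letters are not in it.

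As a check of the labels, 1 of the 2 Gusb probe sets read 5.40 to 6.56 in normals and 4.36 to 4.71 in mutants, with no overlap (two-sided exact permutation p = 0.0286), while the other read 5.12 to 6.40 and 5.55 to 6.59 (two-sided exact permutation p = 0.657). Values throughout are log2 expression values normalized by the authors, so a difference of 1 is a doubling, and array medians lay between 6.09 and 6.17. Probe sets for bacterial transcripts, which give the level of no target, had a median of 2.29 and reached 3.72 on their highest array. Normal 1 stood apart in RNA quality: the mean difference between the 3′ and 5′ control probe sets of actin and Gapdh was 3.58 on its array and 0.22 to 0.75 on the other 7. Markers of neighbouring tissue also differed between arrays. The mean of the striatum list was 10.31, 10.38 and 9.25 in normals 1, 3 and 4 and 6.66 to 7.69 in the other 5 animals, and the mean of the choroid plexus list was 8.36 and 7.33 in mutants 1 and 3 and 4.61 to 5.54 in the others. The part of RNA quality and of neighbouring tissue in the results was not tested, and results without some of these animals are given where they differ.

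Expression of the leukocyte and macrophage surface genes had a higher mean in the mutant hippocampus for 9 of the 10 members, beside 52.5% of all genes. Of these, 3 passed the test over all genes (Cd84, Adgre1 and Ms4a7), beside 0.0968% of all genes. Cd84, a homophilic receptor of the SLAM family, rose 2.56-fold, Adgre1 rose 2.23-fold and Ms4a7, a membrane protein of macrophages, rose 3.69-fold. None fell. The only member with a lower mean in mutants was Itgam, with 0.776 times the normal level on average, and its groups overlapped.

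The test was limma over all 12393 genes with Benjamini-Hochberg adjustment and a threshold of adjusted p 0.05. It called 12 genes higher in mutants, the 3 members among them, and 1 lower (0.00807%). At an unadjusted p under 0.05, 5 members were higher, beside 4.05% of all genes. In 6 members every mutant was above every normal, beside 2.27% of all genes, in 4 the groups overlapped, and in 0 every mutant was below every normal, beside 1.61%. The median change of the members was 0.67 on the log2 scale, beside 0.01 over all genes. In tissue RNA, more cells of a type and more RNA per cell cannot be told apart, and neither can fewer cells and less RNA. The members were chosen with results of these animals known, so their counts are a description and carry no test of the list.

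**Figure D1:**
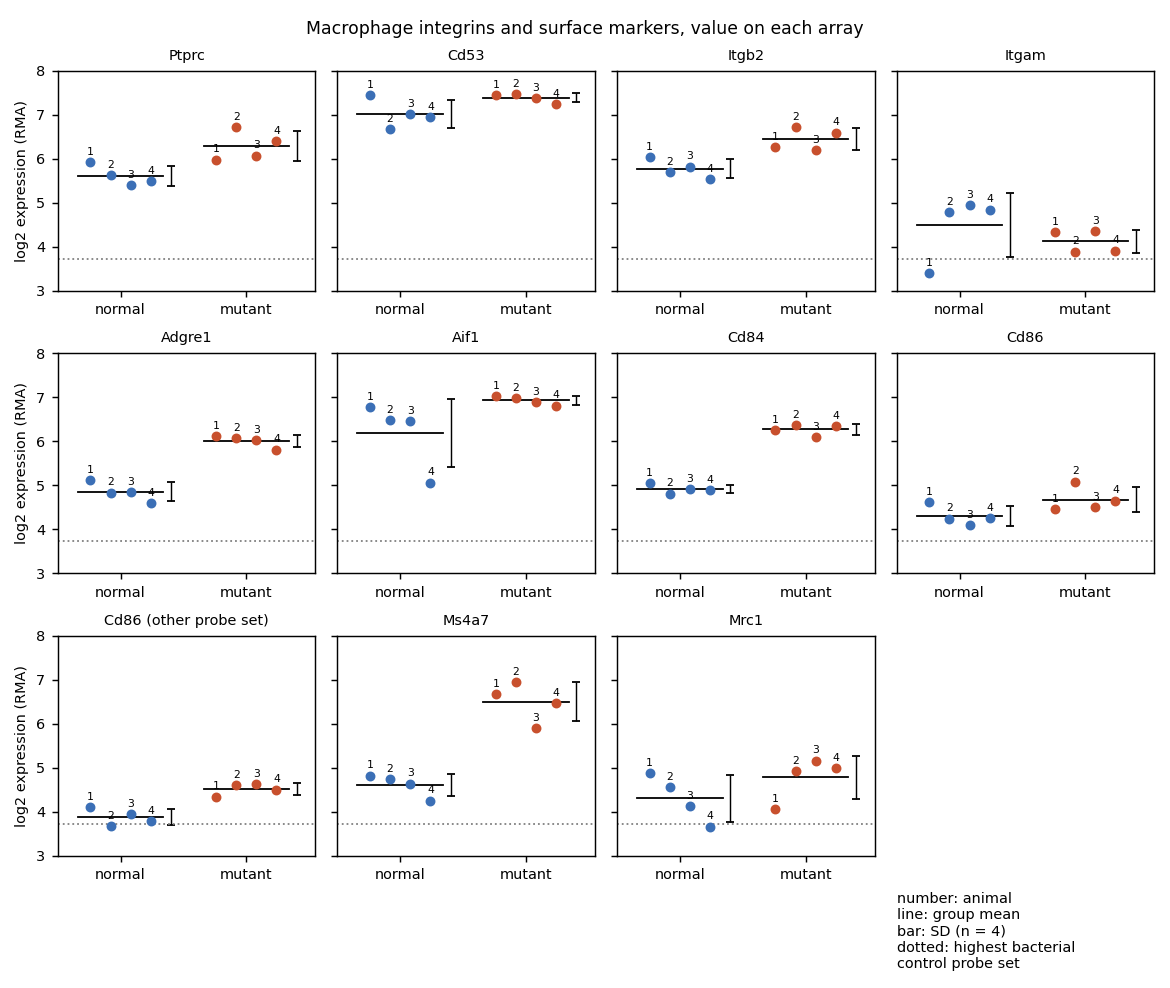
Log2 expression of each of the 11 member probe sets (vertical axis) on each array, with 4 normals and 4 mutants per panel; numbers are animals, horizontal lines group means, bars SD with n = 4, and the dotted line the highest bacterial control value of 3.72. Cd84, Adgre1 and Ms4a7 show mutants clear of normals, while Itgam shows normal 1 at 3.40, below the line, and the other normals above all mutants.

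Among the pan-leukocyte genes, Ptprc encodes the phosphatase CD45 of all nucleated blood cells, which sets the activity of Src family kinases. It read 5.93, 5.62, 5.39 and 5.49 in normals 1 to 4 and 5.98, 6.72, 6.07 and 6.39 in mutants 1 to 4. The groups did not overlap, but mutant 1 was only 0.05 above normal 1, the animal of the same age and sex. The change was 0.68 ± 0.19 (SE; 95% interval 0.24 to 1.12), a ratio of 1.61, and it did not pass over all genes (limma adjusted p = 0.471). For the single gene, the two-sided exact permutation p was 0.0286, which is the smallest that 4 against 4 animals can give and which is shared by every gene whose groups do not overlap.

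Itgb2, the beta chain without which CD11b and its sister alpha chains do not reach the cell surface, gave nearly the same picture. Its values were 6.04, 5.70, 5.82 and 5.53 in normals 1 to 4 and 6.26, 6.71, 6.20 and 6.59 in mutants 1 to 4. All mutants lay above all normals, by 0.16 at the closest. The change was 0.67 ± 0.16 (SE; 95% interval 0.30 to 1.04), a ratio of 1.59, with a limma adjusted p of 0.336. Cd53, a tetraspanin that organises receptors in the leukocyte membrane, read 7.44, 6.67, 7.02 and 6.95 in normals and 7.45, 7.47, 7.38 and 7.24 in mutants. Here normal 1 was level with the mutants and the other 3 normals lay below all of them. The change of Cd53 was 0.36 ± 0.16 (SE; 95% interval -0.01 to 0.74; limma adjusted p = 0.773).

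Itgam was the member whose mean was lower in mutants, unlike its partner chain Itgb2. It read 3.40, 4.78, 4.94 and 4.84 in normals 1 to 4 and 4.33, 3.89, 4.36 and 3.91 in mutants 1 to 4. Normals 2 to 4 were above every mutant, and normal 1 was below every mutant and below the highest bacterial control value. The change was -0.37 ± 0.34 (SE; 95% interval -1.13 to 0.40; limma adjusted p = 0.911), so neither a fall nor a rise was resolved. Without normal 1, the array with the divergent RNA quality value, the change was -0.73 with a limma adjusted p of 0.225, and without normal 3 it was -0.21. The difference of Itgam from Itgb2 on the same array was -2.64, -0.92, -0.88 and -0.69 in normals and -1.94, -2.82, -1.83 and -2.68 in mutants, a shift of -1.03 that rested on normals 2 to 4. The gene was read by a single probe set.

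Adgre1, an adhesion receptor of the G-protein-coupled class found on microglia and most tissue macrophages, read 5.12, 4.83, 4.85 and 4.59 in normals 1 to 4 and 6.11, 6.07, 6.03 and 5.81 in mutants 1 to 4. The mutants were close together and stood 0.70 above the highest normal. Adgre1 rose by 1.16 ± 0.14 (SE; 95% interval 0.85 to 1.47; limma adjusted p = 0.0228) and ranked at position 10 by p among all genes. Its gene spans chr17:57358581-57483529 in GRCm38.p6. The call was kept without normal 1 or normal 2 and was lost without any 1 of the other 6 animals (adjusted p up to 0.127) or with sex as a term (adjusted p = 0.0655), although the change stayed between 1.07 and 1.25.

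Aif1, used widely as the stain for microglia, read 6.78, 6.47, 6.45 and 5.06 in normals and 7.02, 6.98, 6.89 and 6.81 in mutants. All mutants were above all normals, but by only 0.04 at the closest, and normal 4, the youngest animal, lay below the rest at 5.06. The change was 0.74 ± 0.33 (SE; 95% interval -0.03 to 1.50; limma adjusted p = 0.773). Without normal 4 it was 0.36 (limma adjusted p = 0.765).

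Cd84, a SLAM receptor that binds itself on neighbouring cells and signals through small adaptor proteins, had the most even values of the list. Normals 1 to 4 read 5.04, 4.81, 4.91 and 4.88 and mutants 1 to 4 read 6.25, 6.37, 6.10 and 6.34. The lowest mutant was 1.06 above the highest normal, while the SD was 0.10 in normals and 0.12 in mutants. Cd84 rose by 1.35 ± 0.11 (SE; 95% interval 1.11 to 1.60; limma adjusted p = 0.00203), and was position 5 by p among all genes. The gene lies at chr1:171839697-171890718 in GRCm38.p6. It passed with any 1 animal left out (adjusted p 0.00573 to 0.0214). Of the 23 alternatives that gave it a value it passed 21. The exceptions were leaving out normal 1 with age as a term (change 1.43, adjusted p = 0.0573) and a block for animals with neighbouring numbers (change 1.35, adjusted p = 0.12).

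Ms4a7, a member of the family of CD20, with high expression known in macrophages of the brain's borders and in those that enter from the blood, changed most. It read 4.82, 4.74, 4.64 and 4.25 in normals 1 to 4 and 6.67, 6.95, 5.90 and 6.46 in mutants 1 to 4. Mutant 3 was the lowest of its group and still 1.08 above the highest normal. Ms4a7 rose by 1.88 ± 0.23 (SE; 95% interval 1.36 to 2.41; limma adjusted p = 0.0239), with the gene at chr19:11321039-11336146 in GRCm38.p6. The SD was 0.25 in normals and 0.44 in mutants. The call was kept without normal 2 or mutant 3 and lost without any 1 of the other 6 animals (adjusted p up to 0.129), with sex as a term (0.073), with age as a term (0.05 after rounding, just over the threshold) and with both (0.15), while the change stayed between 1.73 and 2.09 under every alternative run.

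Cd86, the costimulatory ligand by which antigen-presenting cells engage CD28 on T cells, was read by 2 probe sets with unlike results. The brighter of them, which stood for the gene, read 4.62, 4.24, 4.09 and 4.26 in normals and 4.45, 5.08, 4.50 and 4.65 in mutants, with overlap because normal 1 was above 2 mutants. Its change was 0.37 ± 0.17 (SE; 95% interval -0.03 to 0.76; limma adjusted p = 0.791), and it was 0.23 without mutant 2. The other probe set read 4.11, 3.68, 3.94 and 3.79 in normals and 4.34, 4.61, 4.62 and 4.50 in mutants, and every mutant was above every normal. Its change was 0.64 ± 0.13 (SE; 95% interval 0.35 to 0.93), with an adjusted p of 0.246 in limma over all 22626 probe sets. In that fit 3 of the 11 member probe sets passed, those of Cd84, Adgre1 and Ms4a7, beside 0.0796% of all probe sets called higher, and 7 of the 11 had groups apart, beside 1.81%.

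**Figure D2:**
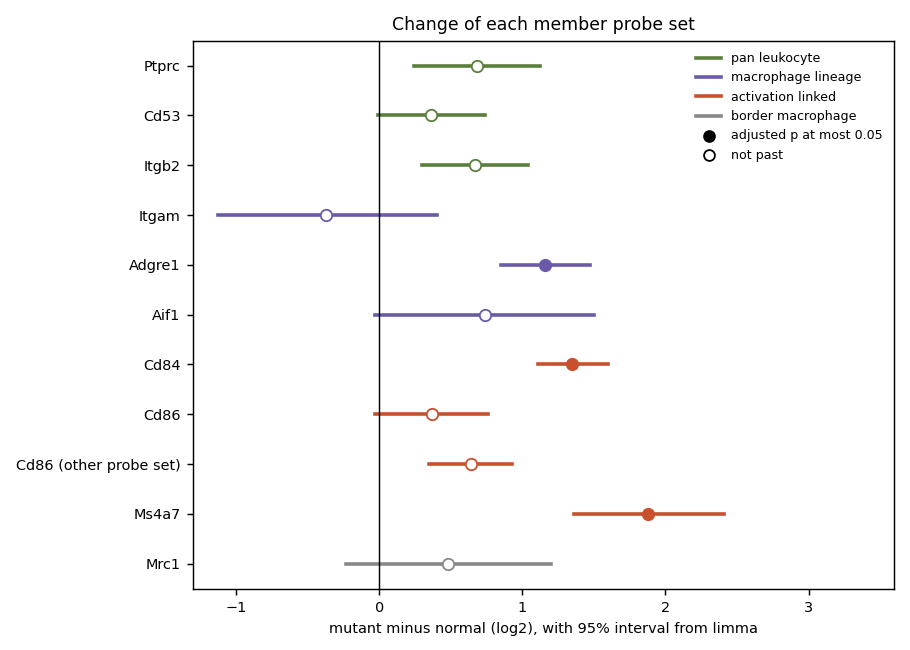
Change of each member probe set, mutant minus normal in log2 units on the horizontal axis, with the 95% interval from limma (n = 4 per group); colours are the gene classes and filled points passed at an adjusted p of 0.05. The filled points are Adgre1 at 1.16, Cd84 at 1.35 and Ms4a7 at 1.88, and Itgam at -0.37 is the only point left of 0.

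Mrc1, the mannose receptor of perivascular and meningeal macrophages, was spread widely in both groups. It read 4.88, 4.55, 4.12 and 3.66 in normals 1 to 4 and 4.06, 4.92, 5.16 and 4.99 in mutants 1 to 4. Mutants 2 to 4 were above all normals and mutant 1 was below normals 1, 2 and 3. The change was 0.48 ± 0.31 (SE; 95% interval -0.23 to 1.20; limma adjusted p = 0.872), and it was 0.27 without normal 4 and 0.73 without mutant 1. The 10 other markers of such border macrophages gave no common direction: 4 had a higher mean in mutants, none passed, and the list mean was 4.22 to 4.75 in normals and 4.43 to 4.73 in mutants. Within that list Stab1, a scavenger receptor, had every mutant above every normal (change 0.69, limma adjusted p = 0.408), and Cd163, the haemoglobin scavenger receptor, every mutant below every normal (change -1.08, limma adjusted p = 0.313).

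The comparison of pan-leukocyte with activation-linked genes set the size of the shift in the second class beside that in the first in the same animals. The mean of Ptprc, Cd53 and Itgb2 was 6.13 ± 0.23 (SD, n = 4) in normals and 6.70 ± 0.20 in mutants, a shift of 0.57. The mean of Cd84, Cd86 and Ms4a7 was 4.61 ± 0.16 in normals and 5.81 ± 0.26 in mutants, a shift of 1.20. The name activation-linked is only a label for these genes. Ms4a7, which changed most, is also known from macrophage subsets, and activation itself was not measured. For the lineage genes Itgam, Adgre1 and Aif1 the shift was 0.51, with Adgre1 past the test and Itgam and Aif1 of opposite sign. The absolute distance between classes depends on their probes, so only its change between groups is read. The size of that change also depends on the probe sets used, as for Cd86, whose 2 probe sets changed by 0.37 and 0.64.

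The activation-linked mean minus the pan-leukocyte mean on the same array was -1.64, -1.40, -1.53 and -1.52 in normals 1 to 4 and -0.77, -0.84, -1.05 and -0.92 in mutants 1 to 4. Each mutant was above each normal, with a shift of 0.63 and a pooled SD within groups of 0.11. No test was run on this shift because the genes were chosen with results known, and the class holds Cd84 and Ms4a7, the members with the largest changes. The shift was 0.29 without Ms4a7, and the genes of the class differed. Relative to Ptprc on the same array, Ms4a7 shifted by 1.20 and Cd84 by 0.67 towards mutants, with each mutant above each normal in both. Cd86, by its brighter probe set, shifted by -0.32 relative to Ptprc, with each mutant below each normal, -1.53 at the highest against -1.38 at the lowest normal. That separation belongs to this probe set: the other Cd86 probe set changed by 0.64, close to the 0.68 of Ptprc. Adgre1, a lineage gene, shifted by 0.48 relative to Ptprc with overlapping groups, Itgb2 by -0.02 and Cd53 by -0.32.

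**Figure D3:**
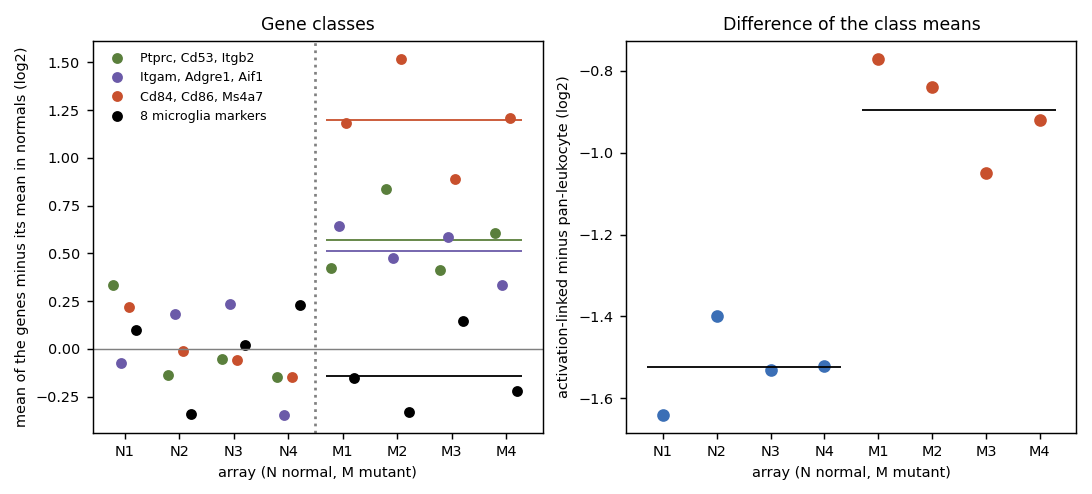
Left, the mean of each gene class on each array minus its mean in normals (log2), with lines at the mutant means; right, the activation-linked mean minus the pan-leukocyte mean on each array (log2), with lines at the group means. The activation-linked genes shifted by 1.20, the pan-leukocyte genes by 0.57, the lineage genes by 0.51 and the 8 microglia markers by -0.14, and on the right the mutants lie between -1.05 and -0.77 and the normals between -1.64 and -1.40.

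Markers of resident microglia, which carry many of the members, were read on the same arrays. Of 8 microglia genes measured, 2 had a higher mean in mutants, beside 52.5% of all genes, and 6 a lower one. None passed. Their mean was 7.42, 6.98, 7.34 and 7.55 in normals 1 to 4 and 7.17, 6.99, 7.47 and 7.10 in mutants 1 to 4, with overlap. Selplg, a selectin ligand, read 7.20 to 7.68 in normals and 6.37 to 6.64 in mutants (change -0.91, limma adjusted p = 0.0801), and Fcrls, a scavenger receptor-like protein of microglia, read 6.87 to 7.52 and 7.93 to 8.27 (change 0.89, limma adjusted p = 0.16). The difference was -0.61 for the purine receptor P2ry12 (limma adjusted p = 0.776) and -0.25 for Tmem119 (limma adjusted p = 0.888). The activation-linked mean minus the microglia mean was -3.09 to -2.39 in normals and -1.97 to -0.86 in mutants, without overlap. The pan-leukocyte mean minus the microglia mean was -1.56 to -0.95 in normals and -0.92 to -0.03 in mutants, also without overlap, though by a narrow margin.

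Markers of blood-borne cells were measured beside the members. Of 5 monocyte markers, Ccr2, Plac8 and Chil3 were never above the highest bacterial control value on any array, and the list mean was 3.64 to 4.13 in normals and 3.78 to 4.01 in mutants. Of 8 T cell markers, 3 were never above it, and the mean was 3.82 to 4.04 in normals and 3.75 to 3.95 in mutants. The B cell list held 7 measured genes, 3 of them never above it, with a mean of 4.01 to 4.50 in normals and 4.01 to 4.19 in mutants, and the neutrophil list 8, with 3.56 to 4.50 and 3.61 to 4.09. Single markers did separate the groups: Cd22 of the B cell list was higher in every mutant (change 0.76, limma adjusted p = 0.336). Itgax of the dendritic list was also higher, and Cd4 of the T cell list was lower in every mutant (-0.80, 0.625). The NK mean was 3.87 to 3.97 in normals and 3.82 to 4.02 in mutants, and the dendritic mean 4.40 to 4.53 and 4.47 to 4.77. No list of blood-borne cells therefore had a mean that separated the groups. The meninges list did: its mean was 5.26 to 5.94 in normals and 6.71, 5.99, 6.93 and 6.21 in mutants 1 to 4. Mrc1, which is known from the meninges, was lowest in normal 4 (3.66), the array with the lowest meningeal mean, and highest in mutant 3 (5.16), the array with the highest, while mutant 1, with the second highest, had the lowest Mrc1 of the mutants (4.06). Ms4a7 was also lowest in normal 4 (4.25), but among mutants it was lowest in mutant 3 (5.90). All 11 endothelial markers had a higher mean in mutants, beside 52.5% of all genes, and none passed. Their mean was 6.16 to 6.80 in normals and 6.73 to 6.96 in mutants. The part of meningeal and vascular tissue in the members' results was not tested. Without mutants 1 and 3, the 2 arrays with most choroid plexus and meningeal signal, the changes were 2.09 for Ms4a7 (limma adjusted p = 0.0809) and 1.09 for Adgre1 (0.354), and Cd84 alone of the 3 passed.

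Ages differed between the groups, so animals of equal age were set side by side. The differences of mutant minus normal were 1.43, 1.42 and 1.22 for Cd84, 0.96, 1.22 and 0.99 for Adgre1, and 1.83, 1.68 and 1.85 for Ms4a7 at 19.6, 25.6 and 38.3 weeks. In these 3 genes the lowest difference at any age was 0.96. In the pan-leukocyte genes the lowest was that at 38.3 weeks: 1.00, 0.77 and 0.05 for Ptprc, 0.77, 0.75 and 0.22 for Itgb2, and 0.22, 0.75 and 0.01 for Cd53. The sign at 38.3 weeks was the opposite of that at the other ages in Itgam (-1.03, -0.65 and 0.93), the brighter Cd86 probe set (0.56, 0.55 and -0.17) and Mrc1 (0.87, 0.49 and -0.82). The other Cd86 probe set kept its sign (0.56, 0.93 and 0.23). For Aif1 the differences were 0.36, 0.46 and 0.25. The only normal of 38.3 weeks was normal 1, so its age and its RNA quality value cannot be told apart, and with 1 or 2 mutants against 1 normal an age these differences have no test.

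**Figure D4:**
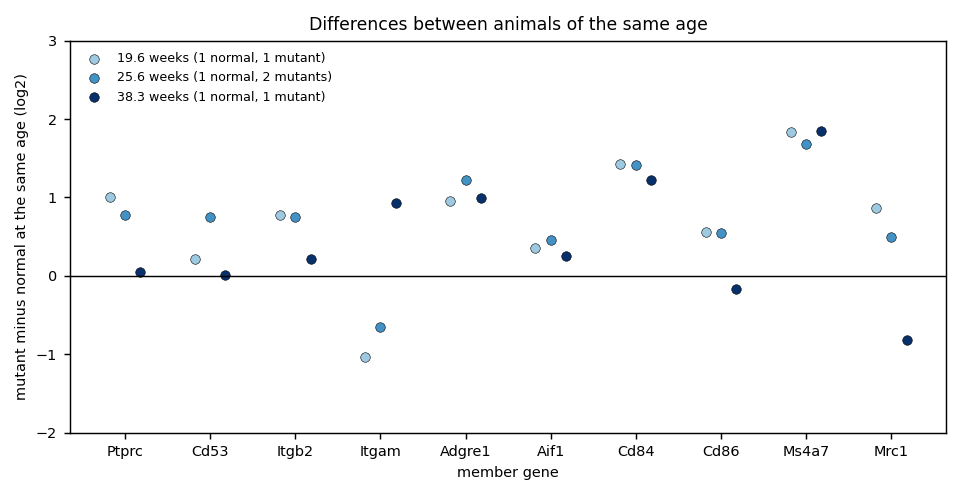
Mutant minus normal (log2, vertical axis) for each member among animals of the same age, with 1 normal and 1 mutant at 19.6 and 38.3 weeks and 1 normal and 2 mutants at 25.6 weeks. Cd84, Adgre1 and Ms4a7 are at 0.96 or above at every age, and Itgam, Cd86 and Mrc1 change side at 38.3 weeks. Cd86 is shown by its brighter probe set, and its other probe set did not change side.

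Normal 1 was the highest normal for 9 of the 10 members and the lowest for Itgam. Normal 4, the youngest, was the lowest for 5. Among mutants, mutant 2 was the highest for 6. With normal 1 left out, every mutant was above every normal in 8 members and below in 1, Itgam, beside 5.04% and 3.03% of all genes with 3 normals. Only Mrc1 still overlapped. Cd84 (adjusted p = 0.00573) and Adgre1 (0.0181) passed limma in that fit and Ms4a7 did not (0.0625).

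In females all 10 members had a higher mean in mutants, though for Itgam the change rounded to 0.00, and in males 9 of 10 did, from 2 animals per genotype and sex. The changes in females and males were 1.34 and 1.37 for Cd84, 1.11 and 1.21 for Adgre1, and 2.03 and 1.73 for Ms4a7. For Cd86 they were 0.11 and 0.62, the lowest interaction p of the list (limma unadjusted p = 0.179, adjusted p = 0.595). Limma called the interaction of genotype and sex in 0 of the members and 0% of all genes, and at an unadjusted p under 0.05 in 0 members beside 11.5% of genes. With 2 animals a cell, that does not show that the sexes responded alike.

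Other genes of the same families were read from 10 lists of 95 genes, 83 of them measured. By limma none passed, beside 0.0968% of all genes called higher. At an unadjusted p under 0.05 in limma, 17 were higher, beside 4.05% of all genes. At that p 0 were lower, for which the share of all genes was not counted. A higher mean in mutants was found in 57, beside 52.5% of all genes. The counts of higher means in the single lists below have the same share of all genes beside them. The median change was 0.10, beside 0.01 over all genes. In 13 (15.7%) every mutant was above every normal, beside 2.27% of all genes. In none was every mutant below every normal, beside 1.61%. The 13 were Itgax, Itgb5, Icam1, Fyb, Cd48, Slamf9, Ly9, Cd9, Icosl, Ms4a6b, Ms4a6c, Ms4a6d and Csf1. For Itgb5, Icosl and Csf1 this held only for the probe set that stood for the gene, and their other probe sets overlapped. Ms4a6d had another probe set with groups apart (change 1.30) and a further set with overlap (-0.10). These lists were drawn up with results of these animals known, and their counts are a description.

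Among 12 further integrin chains, 7 had a higher mean and the median change was 0.06. Itgax, the CD11c alpha chain that also pairs with Itgb2, read 4.82, 4.92, 4.73 and 4.75 in normals and 5.84, 5.93, 5.30 and 6.26 in mutants, a change of 1.02 (limma adjusted p = 0.17). Itgax was thus higher in each mutant, while Itgam, another alpha chain of Itgb2, was not. Itgal, the CD11a alpha chain of lymphocytes and monocytes, differed by 0.10 (limma adjusted p = 0.919). Of 10 ligands and activators, 9 had a higher mean: Icam1, a ligand of the Itgb2 integrins, differed by 1.07 (limma adjusted p = 0.313), the adaptor Fyb by 0.60 (0.235) and Vcam1, a ligand of alpha-4 integrins on vessels, by 0.57 (0.685), with overlap.

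The SLAM list held 8 measured genes besides Cd84, of which 5 were never above the highest bacterial control value. Both counts include Sh2d1a, which encodes an adaptor of these receptors and not a receptor. The 3 that were above it had every mutant above every normal. Cd48, a ligand within the family, read 4.32, 3.86, 3.74 and 2.95 in normals and 5.40, 5.86, 5.32 and 5.20 in mutants, a change of 1.73 (limma adjusted p = 0.1). Ly9 differed by 0.96 (limma adjusted p = 0.206) and Slamf9 by 0.78 (0.128). In the Ms4a family, 4 of 9 genes had a higher mean and 4 were never above the control value. The macrophage-expressed Ms4a6d, Ms4a6b and Ms4a6c differed by 1.21, 0.74 and 0.49 (limma adjusted p = 0.141, 0.138 and 0.536), and Ms4a1, the B cell antigen CD20, stayed under the control value on all arrays.

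Of the tetraspanins, 6 of 7 had a higher mean, with a median change of 0.51, among them Cd9 at 0.68 (limma adjusted p = 0.446) and the leukocyte gene Cd37 at 0.55 (0.57). Among substrates and relatives of CD45, 8 of 10 had a higher mean, the median was 0.09, and Src, at 0.87 (limma adjusted p = 0.622), Syk and Csk all overlapped between groups. The phosphatase Ptpn6 differed by 0.03 with overlap on the probe set that stood for it. Its other, dimmer probe set differed by 0.50 with every mutant above every normal (limma over all probe sets, adjusted p = 0.298). In the family of Cd86, 7 of 9 had a higher mean with a median of 0.07, and Cd80, the sister ligand of CD28, stayed under the control value on all arrays. Mrc2, an endocytic collagen receptor, led the mannose receptor family at 0.52 (limma adjusted p = 0.766), and the adhesion receptors related to Adgre1 gave a median of 0.17, with Adgre5 at 0.18 (0.911). Of the regulators of myeloid cells, the growth factor Csf1 differed by 0.43 with each mutant above each normal (limma adjusted p = 0.529). That was on the probe set that stood for it, and its other probe sets differed by -0.16, 0.03 and 0.46, all with overlap. The receptor of Csf1, Csf1r, differed by -0.19 (limma adjusted p = 0.907), and Spi1, which encodes PU.1, by 0.16 (0.911). The myeloid factors Cebpa and Irf8 differed by 0.72 (limma adjusted p = 0.57) and 0.50 (0.834), both with overlap.

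**Figure D5:**
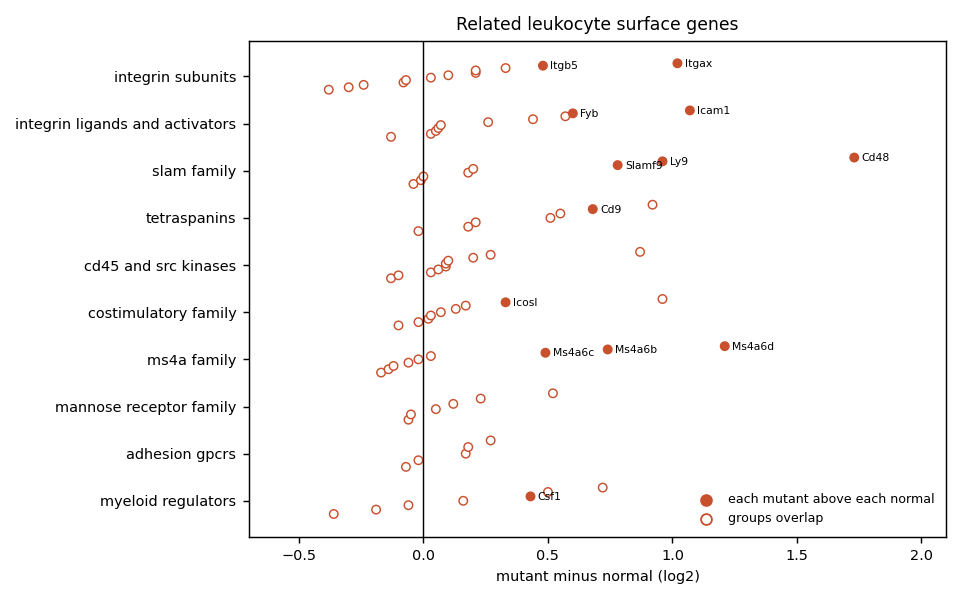
Change of each measured gene (mutant minus normal, log2, horizontal axis) in 10 lists of related genes, with filled points where each of the 4 mutants was above each of the 4 normals. The filled points are 13 of 83, led by Cd48 at 1.73 and Ms4a6d at 1.21, and no list is filled throughout.

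Genes that varied most like the members within groups were sought among the 7288 genes with a mean of at least 6. Each gene's deviations from its group means were correlated over the 8 arrays with those of the mean of the 10 members. The 5 most alike were Dhx16, Zfp87, Fam98a and Nsmce2, each with a Pearson r of 0.99, and Polb with 0.98. Polb is a DNA repair polymerase and Dhx16 an RNA helicase. In all, 91 genes had an r over 0.9. With 8 arrays, 2 group means removed and 7288 genes compared, such values are a description of these arrays and carry no p. The arrays also share the differences in RNA quality and neighbouring tissue given above.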

How the data were processed

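Each deposited value is a log2 expression level of 1 probe set on 1 array, made by the authors with RMA, which corrects background, normalizes and summarises; GCOS 1.4 is also named (both per the submitters' processing notes). The build used to design the probe sets is not given in the sources used here, and positions are those of RefSeq on GRCm38.p6. The table held 22690 probe sets: 64 controls, 20380 with a single gene symbol (20351 found in the gene table), 691 with several and 1555 with none listed. A gene was represented by its probe set with the highest mean, without a filter on dim genes, giving 12393 genes. Precision is limited by the number of animals, since arrays have no counts. The limma p-values set the difference between groups against the spread between animals, moderated over all genes.

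The groups were compared on all 8 arrays without covariates by lmFit and eBayes of limma 3.58.1 under R 4.3.3, with Benjamini-Hochberg adjustment over all genes or all probe sets. For single genes, all 70 arrangements of the arrays were enumerated in a two-sided exact permutation test. Steps were tested on simulated data. Figures were drawn with matplotlib 3.10.9 in Python 3.11.15.

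The members and gene lists were chosen with earlier results of these data known. Besides the members, the text names, of each related list, genes past the threshold and up to 3 more with the smallest p, of each marker list up to 3 with the highest mean and those a result turns on, and the 5 genes most like the members. Itgal, Cd80, Ms4a1, Spi1 and Tmem119 were added for their place in a pathway. Dim markers, markers with groups apart, Ptpn6 and Sh2d1a were added after their values were seen. Alternatives were the mean of a gene's probe sets, dropping probe sets with a suffix letter (such as a, s or x) in their names, and dropping the dimmest 40% of genes. Others were a repeated quantile normalization, centring on medians, a trended robust prior, weighted arrays, and terms for sex, for age and for both. The rest were a random block for equal age, a term for the series of animal numbers, a block for neighbouring animal numbers, and leaving out each animal. Dropping probe sets by suffix letter removed Adgre1, Ptprc and Aif1, and 2 member genes passed in that fit.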

Additional observations from a re-analysis of the deposited data

Results flagged for a closer look

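Of the 22 groups of 4 arrays checked (11 member probe sets in 2 groups), 1 held an array far from the others, a number that chance alone can give. Itgam in normal 1 read 3.40 against 4.78 to 4.94 in the other normals, a gap of 0.89 of the whole range of the group, above Dixon's critical value for 4 values. The same array had the 3′ minus 5′ control value of 3.58, and the part of RNA quality in its Itgam value was not tested.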

How the results depend on the processing

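The labels give no replicate number that the groups share, but each normal has a mutant of the same sex with a neighbouring animal number. With these 4 pairs as a replicate block, chosen after seeing the data, 0 member genes and 0 member probe sets passed, the adjusted p of Cd84, Adgre1 and Ms4a7 was 0.12, and 2 of all genes were called higher and 0 lower. The deviations of paired arrays from their group means correlated at -0.24, 0.06, 0.39 and -0.15 for pairs 1 to 4, only normal 3 correlated best with its own pair, and the ages of pairs 3 and 4 differ, so the animals may share only a number. Over 24 alternatives the changes of the members gave 231 values, of which 0 turned direction, 205 kept their side of the threshold and 26 lost it, all of these for Cd84, Adgre1 and Ms4a7. Of the 3 genes past the threshold, 1 to 3 stayed with 1 animal left out, 1 with sex as a term, and 0 without the dimmest 40% of genes, which leaves 4 of the members in and removes Cd84, Adgre1 and Ms4a7 themselves. Of the 3 member probe sets past it, 1 to 2 stayed with 1 animal left out, 1 with sex as a term and 0 with sex and age as terms. Chosen after seeing the data, leaving out normals 1 and 4 left 1 gene and 1 probe set, leaving out mutants 1 and 3 left 1 gene and 0 probe sets, and leaving out normal 1 with age as a term left 0 of each. Fewer animals and added terms leave fewer degrees of freedom. No alternative called a member lower in mutants. The shift between activation-linked and pan-leukocyte means was 0.59 to 0.68 with 1 animal left out, 0.68 with both Cd86 probe sets, 0.62 with Adgre1 added and 0.29 without Ms4a7, all chosen after seeing the data. Over all genes, array weights called 32 higher and 4 lower in place of 12 and 1, and leaving out normal 2 called 18 and 22. Signal near the bacterial control level (3.72) limits Itgam, Mrc1 and Cd86.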
